A study of Mus musculus with 9 samples.

Results

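EphB2-positive and EphB2-negative cells sorted from the intestine of IκBα knockout mice were compared across all genes, 3 EphB2-positive libraries against 2 EphB2-negative ones, which are 5 of the 9 RNA-seq libraries of the series. The members were set by their labels, genotype IkBa KO and the side of the EphB2 sort, with earlier results of these data known. The mice were C57BL/6 at postnatal day 6. Fresh intestine was made into a suspension of single cells, stained with a fluorescent antibody to EphB2 and sorted, and polyadenylated RNA was amplified as cDNA before sequencing. The other 4 libraries are the same sorts from wild-type mice, 2 of each. Both sides of the sort carried the knockout. The labels do not name the allele, the cells in which the gene was lost, a gate on epithelial cells, or whether a library came from 1 animal or several. Replicates are therefore separate samples of unstated origin, and every p-value here measures only the spread between these libraries, which may be technical.

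The intestinal epithelium renews from stem cells at the base of the crypts. Their daughters divide while they move up, and stop dividing as they become absorptive enterocytes or secretory goblet, Paneth, enteroendocrine and tuft cells. EphB2 is a receptor tyrosine kinase under Wnt control whose level is high at the crypt base and falls towards the villus, where its ephrin-B ligands are made, so sorting on EphB2 separates crypt cells from differentiated ones. At this age crypts are still forming and Paneth cells are immature, and the enterocytes of the suckling gut take up milk lipid and whole proteins. IκBα, encoded by Nfkbia, holds NF-κB dimers in the cytoplasm and is itself an NF-κB target.

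The 5 knockout libraries held 1503972 to 2074076 reads in genes, within the range of all 9. Nfkbia (ENSMUSG00000021025.8, GRCm38 chr12:55489410-55492647) had 0 reads in each of the 5 and 21.5 to 80.4 CPM (the read count scaled to a common library size) in the 4 wild-type libraries. The EphB2-positive libraries resembled each other closely, with Pearson's r of 0.978 to 0.984 on log2 CPM across genes, and the EphB2-negative pair had r = 0.967. The wild-type EphB2-negative pair had r = 0.863, and its replicate 1 stood apart, closer to the EphB2-positive libraries. Its spread enters the error of each test below, since 1 edgeR quasi-likelihood fit of all 9 libraries gave the tests. Epithelial RNA was present on both sides: Epcam, an adhesion molecule of all intestinal epithelium, was at 1112, 1071 and 1184 CPM in EphB2-positive and 932 and 1154 CPM in EphB2-negative libraries, which overlap.

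Of 11577 genes tested, 55.5% passed an adjusted p of 0.05 (Benjamini-Hochberg over all genes tested), 26.4% higher and 29.2% lower in the EphB2-positive cells. A test against a 2-fold change, which asks whether the change exceeds that size, called 8.47% higher and 12.8% lower. The 2 groups did not overlap for 77.1% of genes. The median log2 fold change over all genes was -0.02, so list medians below can be read against a centre near 0. The balance of the calls depends on the scaling. When libraries were scaled to the sum of pan-epithelial genes instead of TMM factors, the median of all genes moved to 0.26 and the split changed from 3053 higher and 3375 lower to 3805 higher and 2221 lower. Leukocyte genes moved with the sort, as described further on, and when a leukocyte score (the average log2 CPM of 18 pan-leukocyte genes) was added as a covariate 354 genes were higher and 652 lower. The score and the sort side nearly coincide in the 5 knockout libraries, so their parts cannot be told apart there.

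**Figure D1:**
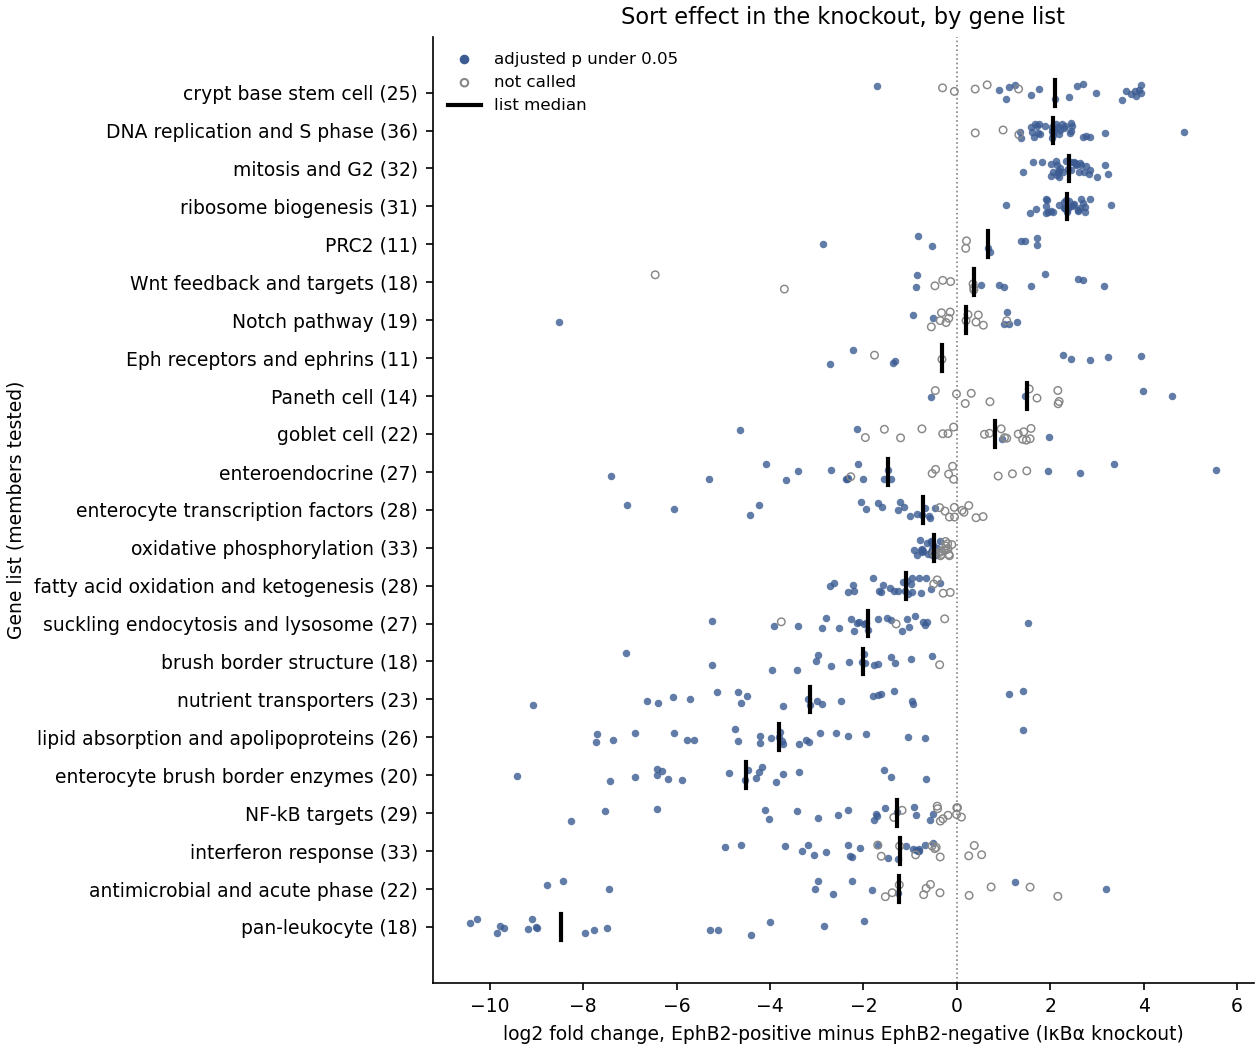
Each point is the log2 fold change (EphB2-positive minus EphB2-negative, knockout, x axis) of 1 tested member of the gene list on the y axis, filled where the adjusted p is under 0.05, and the black bar is the list median. The proliferation lists sit to the right with medians of 2.06 to 2.41, the absorptive enterocyte lists to the left with medians down to -4.50, and the pan-leukocyte list farthest left at -8.48.

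The Eph receptors and ephrins changed in both directions, and the sorted receptor was among those that rose. Ephb2 (chr4:136647539-136835988 in GRCm38) was at 182, 183 and 171 CPM in EphB2-positive and 30.7 and 34.4 CPM in EphB2-negative libraries, a log2 fold change of 2.45 ± 0.26 (SE, adjusted p = 9.2e-05). Of the 11 tested members of this family list, 5 rose and 4 fell, against 26.4% and 29.2% of all genes, with a median log2 fold change of -0.32. Ephb3, the other B-type receptor of the crypt base, was at 22.7, 23.3 and 30.3 CPM against 1.92 and 1.27 CPM. It rose by more than the sorted receptor on the log2 scale, 3.94 ± 0.59 (adjusted p = 0.00049). Ephb4 was at 165, 170 and 180 CPM against 25 and 22.3 CPM (2.86 ± 0.28, adjusted p = 7.2e-05), and Epha4 rose by 3.23 ± 0.73 (adjusted p = 0.0043) at no more than 10.3 CPM.

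The ligands and the A-type receptors went mostly the other way. Efnb2, a transmembrane ligand of the EphB receptors, was at 33.4, 22.9 and 24.2 CPM in EphB2-positive and 165 and 184 CPM in EphB2-negative libraries, a fold change of -2.71 ± 0.26 (adjusted p = 6.7e-05). Efna1, a membrane-anchored ligand of EphA receptors, fell by 2.23 ± 0.21 (adjusted p = 5.4e-05), Epha1 by 1.37 ± 0.21 (adjusted p = 0.00060) and Epha2 by 1.32 ± 0.31 (adjusted p = 0.0052). Efnb1, the other B-type ligand expressed here, was at 28.7 to 34.4 CPM against 36.9 to 43.5 CPM and did not pass the test (-0.32 ± 0.19, adjusted p = 0.18). Efna4 was the ligand that rose (2.28 ± 0.59, adjusted p = 0.0086), and its call was lost without either EphB2-negative knockout library (adjusted p = 0.052 and 0.058). In each called member the 2 groups did not overlap, as was the case for 77.1% of all genes.

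Crypt base stem cell genes rose as a group. Among the 25 tested, 19 were called higher, 1 lower and 5 neither, with a median log2 fold change of 2.11. Lgr5, the R-spondin receptor that marks dividing stem cells, was at 68.1, 55.2 and 67.9 CPM against 2.56 and 6.37 CPM, a 14-fold difference (3.81 ± 0.62, adjusted p = 0.0011). Olfm4, a secreted crypt base glycoprotein, was far more abundant, at 1479, 1186 and 2149 CPM against 85.7 and 124 CPM (3.94 ± 0.70, adjusted p = 0.0025). Smoc2, a matricellular protein of stem cells, was at 102, 106 and 140 CPM against 3.20 and 12.1 CPM (3.91 ± 0.77, adjusted p = 0.0041). Every EphB2-positive library lay above both EphB2-negative ones for these 3 genes, while the EphB2-positive libraries themselves differed by less than 2-fold.

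Other stem cell genes ranged from larger to smaller differences. Sox9, a crypt transcription factor, was at 51.4, 54.8 and 61.2 CPM against 5.12 and 3.82 CPM (3.62 ± 0.46, adjusted p = 0.00023). Slc12a2, a basolateral ion cotransporter of crypt cells, was at 609, 609 and 636 CPM against 33.3 and 46.5 CPM (3.95 ± 0.46, adjusted p = 0.00024). Lrig1, a brake on growth factor receptors, was at 175, 170 and 200 CPM against 23.0 and 32.5 CPM (2.71 ± 0.27, adjusted p = 7.2e-05). The genes proposed for slowly cycling stem cells did not all go the same way. Hopx rose 5.29-fold and Bmi1 2.08-fold (adjusted p = 0.00012 and 0.0049), while Tert, given below, fell. Ascl2, a Wnt-driven stem cell transcription factor, was at 14 to 21.1 CPM against 0.637 and 1.92 CPM (3.74 ± 0.91, adjusted p = 0.0075), and lost its call without EphB2-negative replicate 2 (adjusted p = 0.071). Tert, the telomerase subunit, fell by 1.72 ± 0.34 (adjusted p = 0.0023), at 2.00 to 3.33 CPM against 8.96 and 10.2 CPM.

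**Figure D2:**
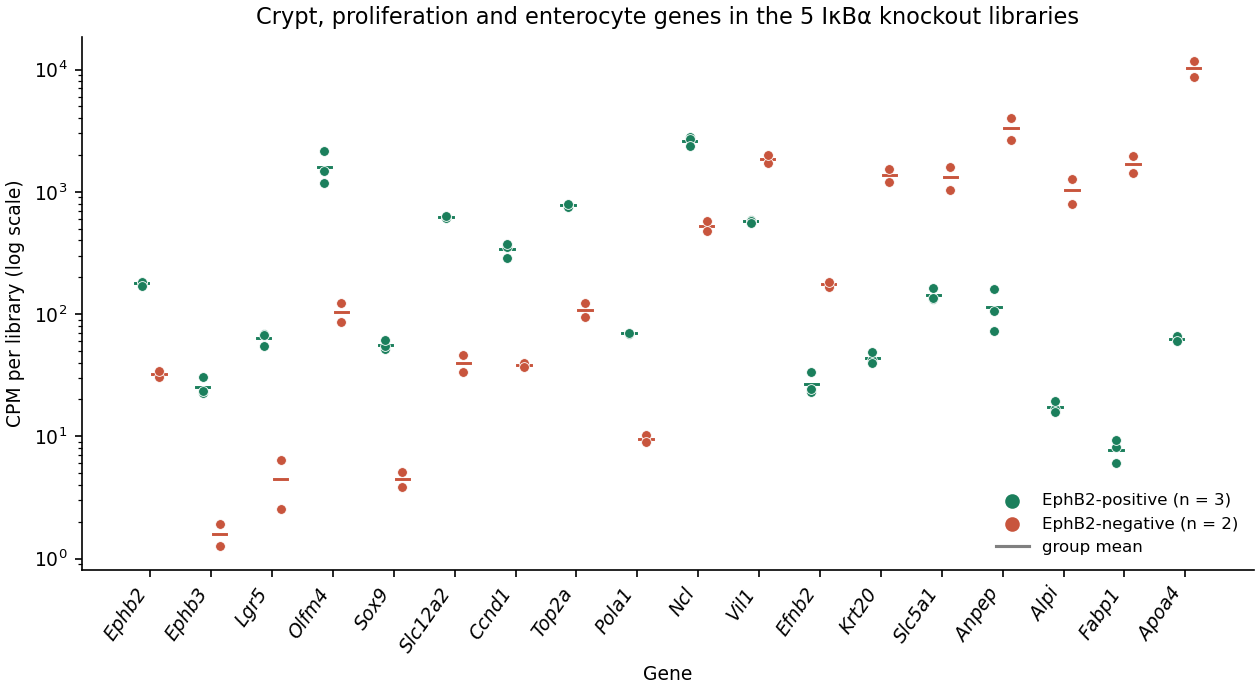
CPM of 18 genes (x axis) in each knockout library on a log scale (y axis), with EphB2-positive libraries in green, EphB2-negative ones in red and group means as bars. Ephb2 to Ncl lie higher in all 3 EphB2-positive libraries and Vil1 to Apoa4 lower, with no overlap in any of the 18 (against 77.1% of all genes).

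Wnt and Notch pathway genes were less uniform. Of 18 Wnt feedback and target genes, 8 rose and 2 fell, against 26.4% and 29.2% of all genes, with a median of 0.36. Ccnd1, the G1 cyclin, was at 285, 356 and 375 CPM against 39.7 and 36.9 CPM (3.14 ± 0.32, adjusted p = 9.3e-05), and Rnf43, a ubiquitin ligase that removes Wnt receptors, at 87.4, 69.0 and 68.9 CPM against 21.1 and 22.9 CPM (1.76 ± 0.30, adjusted p = 0.0011). Its relative Znrf3 rose 4.32-fold (adjusted p = 0.0021) and the target Sp5 6.53-fold (adjusted p = 0.0021). Axin2, a scaffold of the β-catenin destruction complex and a general Wnt target, was at 61.4 to 81.2 CPM against 17.3 and 28.7 CPM (1.60 ± 0.48, adjusted p = 0.021). That call was lost without EphB2-positive replicate 3, EphB2-negative replicate 1 or EphB2-negative replicate 2 (adjusted p = 0.057, 0.13 and 0.052), and the list then had 5 members higher without either EphB2-negative library. Tcf7l2, the Wnt transcription factor that is broad along the epithelium, and Kremen1, a co-receptor for Wnt antagonists, fell by 0.85 ± 0.25 and 0.87 ± 0.25 (adjusted p = 0.017 and 0.013). Tcf7l2 lost its call without EphB2-positive replicate 2 or either EphB2-negative library (adjusted p = 0.060, 0.082 and 0.080), and Kremen1 without EphB2-negative replicate 2 (adjusted p = 0.14), under pan-epithelial scaling (0.12) and with the replicate block (0.056).

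Of 19 Notch pathway genes, 4 rose and 3 fell (median 0.20), below the background shares in both directions. The receptor Notch1 was at 45.4, 56.2 and 46.3 CPM against 41.6 and 42.0 CPM and did not pass (0.24 ± 0.18, adjusted p = 0.27). Its target Hes1, the repressor that favours the absorptive fate, was at 49.4 to 57.1 CPM against 35.0 and 44.8 CPM (0.41 ± 0.22, adjusted p = 0.13). The ligands Dll1 and Dll4 overlapped between groups. Nrarp, a feedback inhibitor of Notch, rose 2.16-fold (adjusted p = 0.0052), Mib1, the ligase that activates Notch ligands, rose 2.46-fold (adjusted p = 0.0031), and Numb, a Notch antagonist, fell 1.92-fold (adjusted p = 0.00079).

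Subunits of Polycomb repressive complex PRC2, which methylates histone H3 at silenced genes, changed in both directions. Of 11 tested, 6 rose and 3 fell, with a median of 0.66, and the share that fell is near the 29.2% of all genes. The core subunits rose: Ezh2, the methyltransferase of dividing cells, was at 114, 120 and 122 CPM against 44.8 and 40.8 CPM (1.47 ± 0.25, adjusted p = 0.00088). Eed was at 106, 89.0 and 77.6 CPM against 25 and 29.9 CPM (1.72 ± 0.21, adjusted p = 0.00016), and Suz12 at 203, 242 and 226 CPM against 142 and 133 CPM (0.70 ± 0.14, adjusted p = 0.0024). Ezh1, the methyltransferase of resting cells, fell by 0.83 ± 0.19 (adjusted p = 0.0050), and lost its call when libraries were scaled to pan-epithelial genes (adjusted p = 0.078). The accessory subunit Phf1 fell by 2.87 ± 0.55 (adjusted p = 0.0019), from 29.4 and 38.2 CPM to between 2.06 and 6.67 CPM.

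Genes of cell division and ribosome making rose almost without exception. Of 36 DNA replication and S phase genes, 33 rose and none fell (median 2.06). All 32 mitosis and G2 genes tested rose (median 2.41), as did all 31 ribosome biogenesis genes (median 2.36). The 2-fold test called 24, 29 and 30 of them, against 8.47% of all genes. No library of one side overlapped with the other in any mitosis or ribosome biogenesis gene, against 77.1% of all genes without overlap. With the leukocyte covariate 1, 3 and 6 members of these lists were called higher, and 3 of the stem cell list.

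In S phase, Rrm2, the ribonucleotide reductase subunit that limits nucleotide supply, was at 186, 240 and 215 CPM against 49.9 and 36.9 CPM (2.30 ± 0.29, adjusted p = 0.00020). Pola1, the catalytic subunit of the polymerase that primes replication, was at 69.4, 68.1 and 70.4 CPM against 10.2 and 8.91 CPM (2.85 ± 0.38, adjusted p = 0.00027). Mcm7, a subunit of the replicative helicase, was at 293, 291 and 327 CPM against 55 and 56.7 CPM (2.44 ± 0.40, adjusted p = 0.0012). Pcna, the sliding clamp, had a smaller difference, 338 to 367 CPM against 106 and 122 CPM (1.64 ± 0.34, adjusted p = 0.0034). Ccne2, the cyclin that starts S phase, had 1 read in the EphB2-negative libraries and 9.05 to 15.3 CPM in the EphB2-positive ones, a ratio of 33.9 with a 95% counting interval from 5.86 to 1361.

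In mitosis, Top2a, the topoisomerase that untangles chromosomes, was at 783, 749 and 788 CPM against 122 and 94.2 CPM (2.84 ± 0.29, adjusted p = 8.4e-05). Cdk1, the mitotic kinase, was at 183, 154 and 151 CPM against 31.4 and 19.7 CPM (2.67 ± 0.43, adjusted p = 0.0011). Mki67, the proliferation antigen, was at 630, 619 and 576 CPM against 143 and 123 CPM (2.19 ± 0.38, adjusted p = 0.0014). The EphB2-negative libraries still held reads of these 3 genes, at levels 4.57 to 7.14 times lower. Anln, a scaffold of the cleavage furrow, had the list's largest difference, 67.4 to 79.5 CPM against 7.04 and 8.28 CPM (3.23 ± 0.30, adjusted p = 5.4e-05). Among nucleolar genes, Ncl (nucleolin) was at 2795, 2677 and 2361 CPM against 575 and 474 CPM (2.32 ± 0.24, adjusted p = 8.3e-05), and Npm1 (nucleophosmin) at 1950, 2022 and 1889 CPM against 393 and 313 CPM (2.47 ± 0.28, adjusted p = 0.00011). Nop58, a core protein of box C/D particles that methylate ribosomal RNA, rose 6.20-fold (adjusted p = 4.5e-05).

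Promoters of the mitosis and replication lists held short sequences known from cell cycle genes. Both lists were made of such genes, so the list shares below describe the lists and do not test the sort. RefSeq promoter windows of GRCm38.p6, from 250 bases before to 50 after the start, were searched on both strands for the CHR element (TTTGAA or TTCAAA) and the CCAAT box (CCAAT or ATTGG), the pair known from promoters of G2 and mitosis genes. The CHR was found in 21 of the 26 mitosis genes with a window (80.8%), against 18.2% of all 27025 windows, and the CCAAT box in 23 of 26 (88.5%) against 38.0%. Both elements were in 20 of 26 (76.9%) against 7.16% of all windows, 5.01% of those of tested genes and 7.56% of the genes called higher. The E2F site of S phase genes (TTCCCGC or GCGGGAA) was in 12 of 28 DNA replication genes (42.9%), against 4.67% of all windows and 8.68% of those of tested genes. It was in 13.1% of genes called higher and 6.02% of genes called lower. Ribosome biogenesis genes, which also rose, held the CHR in 1 of 27 windows (3.70%), CHR and CCAAT together in 0 of 27, and the E2F site in 3 of 27 (11.1%). The 250 bases before the start of Top2a and Cdk1 are shown with CHR and CCAAT letters in capitals, and those of Pola1 and Mcm7 with E2F letters in capitals, each 5′ to 3′ on the gene's strand, which is the minus strand in all 4, because they carry the elements of the lists that rose together. They lie at chr11:99024190-99024439, chr10:69352913-69353162, chrX:93632156-93632405 and chr5:138171884-138172133. A match describes letters in a window and not a bound site.
Top2a: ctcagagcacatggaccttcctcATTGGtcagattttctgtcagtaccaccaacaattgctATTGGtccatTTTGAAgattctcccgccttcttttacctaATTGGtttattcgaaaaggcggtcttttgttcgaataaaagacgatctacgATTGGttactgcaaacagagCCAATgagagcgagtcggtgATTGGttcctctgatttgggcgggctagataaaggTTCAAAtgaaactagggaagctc
Cdk1: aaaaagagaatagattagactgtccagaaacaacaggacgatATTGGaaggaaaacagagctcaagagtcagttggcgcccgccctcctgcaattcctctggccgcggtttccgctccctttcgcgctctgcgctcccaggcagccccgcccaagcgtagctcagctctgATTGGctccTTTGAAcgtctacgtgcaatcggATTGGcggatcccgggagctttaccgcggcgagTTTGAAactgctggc
Pola1: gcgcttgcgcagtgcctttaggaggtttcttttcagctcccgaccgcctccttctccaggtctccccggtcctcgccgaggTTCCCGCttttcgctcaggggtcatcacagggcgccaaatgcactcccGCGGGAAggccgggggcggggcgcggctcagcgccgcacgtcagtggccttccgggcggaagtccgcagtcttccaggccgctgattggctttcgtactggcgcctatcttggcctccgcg
Mcm7: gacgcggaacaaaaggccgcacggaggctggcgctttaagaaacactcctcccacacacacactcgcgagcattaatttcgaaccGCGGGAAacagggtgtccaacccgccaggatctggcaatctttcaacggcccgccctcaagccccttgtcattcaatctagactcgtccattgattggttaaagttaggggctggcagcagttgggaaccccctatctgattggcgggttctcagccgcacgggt

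Absorptive enterocyte genes fell in the EphB2-positive cells. All 20 brush border enzyme genes tested fell (median -4.50), and 17 of 18 genes of brush border structure fell with none higher (median -2.02). With the leukocyte covariate 3 and 4 were called lower. The enzymes that face the gut lumen had the widest gaps. Alpi, intestinal alkaline phosphatase, was at 16.7, 19.5 and 15.9 CPM against 787 and 1276 CPM, a 58.9-fold difference (-5.88 ± 0.42, adjusted p = 3.4e-05). Anpep, aminopeptidase N, was at 161, 107 and 73.0 CPM against 2649 and 4000 CPM (-4.88 ± 0.46, adjusted p = 0.00010). Ggt1, a peptidase of glutathione, fell 78.8-fold (adjusted p = 1.1e-05). The lactase gene Lct was at 0.667 to 1.90 CPM against 58.9 and 197 CPM (-6.41 ± 1.27, adjusted p = 0.0052). Mme (neprilysin) had 0 reads on the EphB2-positive side against 19.8 and 70.0 CPM, at least 83.2-fold lower against a floor of 3 reads over the group. Such floors and the counting intervals cover counting error only. Its call was lost without wild-type EphB2-negative replicate 1 (adjusted p = 0.052) and in a fit of the 5 knockout libraries alone (adjusted p = 0.10). Mgam, maltase-glucoamylase, was the exception in size, at 974, 885 and 935 CPM against 1300 and 1622 CPM (-0.65 ± 0.16, adjusted p = 0.0066), and lost its call without EphB2-negative replicate 2 (adjusted p = 0.094) and under pan-epithelial scaling (adjusted p = 0.15).

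Genes that build the microvillus had a list median closer to 0 than the enzymes on it. Vil1 (villin, an actin bundler) was at 589, 579 and 557 CPM against 1733 and 1985 CPM (-1.69 ± 0.18, adjusted p = 9.9e-05), and Myo1a, the motor linking membrane to the core bundle, at 368, 388 and 383 CPM against 1349 and 1638 CPM (-1.98 ± 0.18, adjusted p = 4.5e-05). The protocadherin Cdhr5, which links neighbouring microvilli, was at 131, 150 and 149 CPM against 1253 and 1810 CPM (-3.42 ± 0.40, adjusted p = 0.00026). In both lists each member's groups were fully separate, against 77.1% of all genes. Of 17 villus tip genes 9 fell and 1 rose, against 29.2% and 26.4% of all genes. Among those that fell was Krt20, the keratin of shedding-zone cells, at 42.0, 39.5 and 48.8 CPM against 1212 and 1538 CPM (-4.98 ± 0.51, adjusted p = 0.00018). Cdkn1a, the p21 cell cycle inhibitor, fell 3.61-fold (adjusted p = 7.3e-05). Tmprss2, a membrane serine protease placed in that list, rose 2.68-fold (adjusted p = 0.00013).

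The lipid absorption list fell in 25 of 26 members (median -3.80). Apoa1 and Apoa4, the apolipoproteins of newly made chylomicrons, together took 1.18% and 1.53% of reads in the EphB2-negative libraries and 0.00831% to 0.00963% in the EphB2-positive ones. Apoa4 was at 60.1, 65.7 and 60.2 CPM against 8655 and 11742 CPM (-7.36 ± 0.71, adjusted p = 0.00015), and Apoa1 at 23.4, 25.7 and 36.0 CPM against 4908 and 7059 CPM (-7.71 ± 0.82, adjusted p = 0.00029). Fabp1, a fatty acid carrier of the cytosol, had a difference of the same order, 6.01, 8.09 and 9.25 CPM against 1426 and 1945 CPM (-7.73 ± 0.49, adjusted p = 2.3e-05). Mttp, which loads lipid onto Apob, was at 379, 338 and 320 CPM against 2791 and 4383 CPM (-3.38 ± 0.32, adjusted p = 7.2e-05). Mogat2, which rebuilds glycerides from absorbed monoglyceride, fell 26.7-fold, and Dgat1, which completes triglycerides, 9.41-fold (adjusted p = 2.3e-05 and 1.1e-05). Acsl3, a fatty acid CoA ligase, was the member that rose, at 64.7, 73.8 and 60.2 CPM against 26.2 and 23.6 CPM (1.41 ± 0.21, adjusted p = 0.00043).

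Of 23 nutrient transporters 21 fell and 2 rose (median -3.15). Slc5a1, the sodium-glucose cotransporter, was at 133, 162 and 136 CPM against 1031 and 1600 CPM (-3.19 ± 0.30, adjusted p = 7.0e-05). Slc6a19, a neutral amino acid transporter, was at 2.00 to 3.60 CPM against 188 and 280 CPM (-6.40 ± 0.40, adjusted p = 1.9e-05), and Slc34a2, a phosphate transporter, at 10.0 to 16.0 CPM against 500 and 776 CPM (-5.72 ± 0.35, adjusted p = 1.9e-05). Slc2a2, the basolateral glucose and fructose carrier, had 0 reads on the EphB2-positive side against 23.7 and 47.8 CPM, at least 66.1-fold lower (adjusted p = 0.0032). The 2 that rose were Slc16a1, a carrier of lactate and other monocarboxylates, at 268 to 297 CPM against 91.7 and 119 CPM (1.41 ± 0.21, adjusted p = 0.00047), and Slc1a1, a glutamate transporter, 2.16-fold (adjusted p = 0.0084, and 0.067 without EphB2-negative replicate 1).

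In the list for endocytosis and lysosomes of the suckling gut, 23 of 27 fell and 1 rose (median -1.89). Amn, the partner of the scavenger receptor cubilin, was at 18.0, 20.5 and 17.5 CPM against 118 and 145 CPM (-2.81 ± 0.18, adjusted p = 1.9e-05). Dab2, its endocytic adaptor, was at 2.00 to 2.86 CPM against 58.9 and 123 CPM (-5.24 ± 0.73, adjusted p = 0.00073). Fcgrt, the neonatal receptor for milk antibodies, was at 22, 13.3 and 18.0 CPM against 216 and 315 CPM (-3.92 ± 0.48, adjusted p = 0.00038), and Glb1, a lysosomal galactosidase, fell 7.42-fold (adjusted p = 0.00016). Prdm1, the repressor that keeps the suckling programme on, was at 22, 21.4 and 21.6 CPM against 84.5 and 82.1 CPM (-1.94 ± 0.30, adjusted p = 0.00057). Cps1, a mitochondrial enzyme of citrulline synthesis in the neonatal gut, went the other way at 3862, 2749 and 3247 CPM against 1067 and 1232 CPM (1.51 ± 0.28, adjusted p = 0.0016).

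Transcription factors of the enterocyte had a list median closer to 0 than the enzymes and transporters. Of 28 tested, 18 fell and none rose (median -0.72). Hnf4g was at 102, 113 and 121 CPM against 195 and 256 CPM (-1.01 ± 0.16, adjusted p = 0.00062), and Creb3l3, a membrane-bound activator of apolipoprotein genes that was counted in the lipid list, at 22.7, 19 and 9.77 CPM against 1101 and 1172 CPM (-6.06 ± 0.30, adjusted p = 1.1e-05). Hnf4a, the related nuclear receptor of the whole epithelium, was at 648 to 670 CPM against 871 and 934 CPM (-0.46 ± 0.17, adjusted p = 0.041). The Hnf4a call was lost in 7 of the 9 fits that left out 1 library, with adjusted p from 0.058 to 0.21, the highest without EphB2-negative replicate 2, under pan-epithelial scaling (adjusted p = 0.28), with either block term (0.13) and with no filter on low counts (0.075). Cdx2, a homeobox factor of intestinal identity, did not pass (174 to 231 CPM against 256 and 263 CPM, -0.37 ± 0.16, adjusted p = 0.081).

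A long letter form of the HNF4 site (CAAAGTCCA or TGGACTTTG) was in 26 of 2574 windows of genes called lower (1.01%), 6 of 2367 of genes called higher (0.254%), 0.518% of those of tested genes and 0.474% of all windows. It is shown in capitals in the 250 bases before Alpi, on the minus strand at chr1:87101607-87101856, as the brush border gene of that group with the widest use as an enterocyte marker. Most enterocyte genes lacked it: it was in 2 of 16 brush border enzyme, 1 of 14 brush border structure and 1 of 21 nutrient transporter windows. In the lipid list it was in 0 of 21 and among enterocyte transcription factors in 0 of 18.
Alpi: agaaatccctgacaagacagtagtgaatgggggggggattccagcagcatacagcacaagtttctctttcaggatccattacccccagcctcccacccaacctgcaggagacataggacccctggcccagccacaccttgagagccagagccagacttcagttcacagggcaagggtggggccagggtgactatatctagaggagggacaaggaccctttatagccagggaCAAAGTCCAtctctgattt

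Pan-leukocyte genes other than Lcp1 were at low levels or at 0 in the EphB2-positive libraries. All 18 pan-leukocyte genes fell (median -8.48, or -6.70 with genes of 0 reads set at their bound). Their summed level was 105 to 122 CPM in EphB2-positive and 1612 and 2096 CPM in EphB2-negative libraries, and in the former most of it was Lcp1, an actin bundler, at a mean of 91.0 CPM, whose call was lost without EphB2-negative replicate 1 (adjusted p = 0.053) and under pan-epithelial scaling (0.055). Ptprc, the CD45 antigen of all leukocytes, had 1 read in the 3 EphB2-positive libraries together, against 141 and 115 CPM, and lost its call without EphB2-positive replicate 3 (adjusted p = 0.064). Cd52, a leukocyte surface glycoprotein, had 0 reads against 91.5 and 73.2 CPM, at least 152-fold lower (adjusted p = 0.014, and 0.062 with no filter on low counts). In these bulk samples fewer cells of a type and less RNA per cell cannot be told apart.

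**Figure D3:**
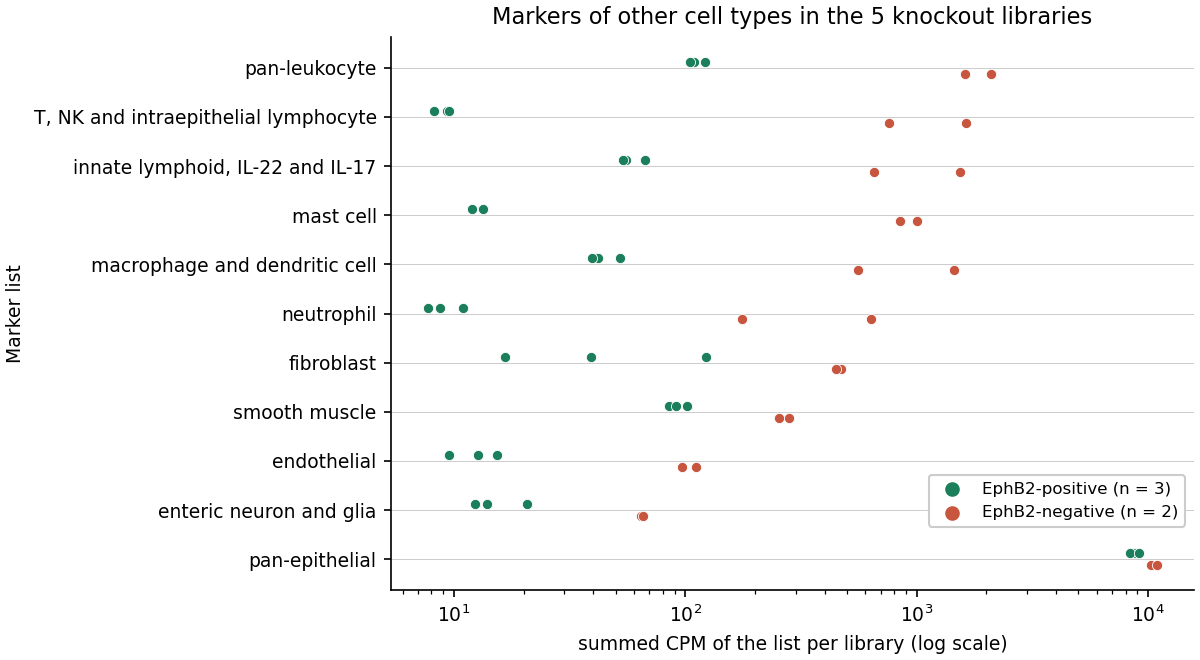
Summed CPM of each marker list (y axis) in the 5 knockout libraries on a log scale (x axis), EphB2-positive in green and EphB2-negative in red. All the plotted lists but the pan-epithelial one differ by 2.90-fold or more between group means, and the 2 EphB2-negative libraries lie apart from each other for the lymphocyte, innate lymphoid, macrophage and neutrophil lists.

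The 2 EphB2-negative libraries differed in which leukocyte genes they held. Replicate 1 had the higher sum for T, NK and intraepithelial lymphocytes (1632 against 762 CPM) and innate lymphoid cells (1539 against 657 CPM), and replicate 2 for macrophages and dendritic cells (1454 against 555 CPM) and neutrophils (637 against 177 CPM). Gzma, a granzyme of cytotoxic lymphocytes, was at 723 and 305 CPM, and the cytokine Il22 at 742 and 210 CPM, with 1 read each in the EphB2-positive libraries. S100a9, an alarmin of neutrophils, was at 30.7 and 178 CPM and had 0 reads in the EphB2-positive libraries, at least 193-fold lower. C1qa, a complement gene of macrophages, was at 28.2 and 96.8 CPM and also had 0 reads, at least 116-fold lower. The S100a9 and C1qa calls were lost without wild-type EphB2-negative replicate 1 (adjusted p = 0.22 and 0.13) or replicate 2 (0.22 and 0.12), in the knockout libraries alone (0.22 and 0.13) and with no filter on low counts (0.074 and 0.057). The lymphocyte list had 13 of 20 lower, but 6 and 5 when EphB2-negative replicate 1 or 2 was left out, and 8 without EphB2-positive replicate 2.

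Mast cell genes were similar in the 2 libraries, with sums of 1001 and 848 CPM against 12 to 13.4 CPM. Mcpt1, a mucosal mast cell protease, was at 454 and 441 CPM with 1 read on the EphB2-positive side (adjusted p = 0.0012), and Cpa3, the mast cell carboxypeptidase, at 39.7 and 32.5 CPM with 0 reads, at least 66.6-fold lower (adjusted p = 0.0011). Mcpt1 has close relatives in the same gene cluster, so its reads may be shared with them. Fibroblast genes summed to 16.7, 39.0 and 123 CPM against 470 and 448 CPM, and EphB2-positive replicates 2 and 3 thus held more of them than replicate 1. The B and plasma cell list, which is not plotted, summed to 173 to 202 CPM against 189 and 121 CPM. Most of that sum was Sdc1 (syndecan-1), which epithelium makes too and which rose from 85.7 and 72.0 CPM to between 168 and 196 CPM (1.19 ± 0.21, adjusted p = 0.0010). Of its 6 tested members 4 fell, but 1 and 2 without EphB2-negative replicate 1 and 2. Erythroid genes summed to at most 1.54 CPM, and none was tested. The part of these cells in the other differences was not tested beyond the values given beside them.

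Secretory lineages did not move as 1 group. Of 22 goblet cell genes 2 rose and 2 fell, below the shares of all genes, 26.4% higher and 29.2% lower. The list's median (0.82) and the sum of its levels pointed in opposite directions. The sum was 2540 to 4627 CPM on the EphB2-positive side against 6628 and 9329 CPM. Muc2, the gel-forming mucin, was at 458, 340 and 693 CPM against 704 and 962 CPM (-0.75 ± 0.82, adjusted p = 0.47), Tff3, a trefoil peptide, at 433, 302 and 586 CPM against 906 and 1121 CPM (-1.20 ± 0.71, adjusted p = 0.19), and Zg16, a lectin of mature goblet cells, at 6.01, 8.57 and 28.3 CPM against 153 and 576 CPM (-4.64 ± 0.74, adjusted p = 0.0020). Other members were higher in all 3 EphB2-positive libraries: Spdef, the goblet transcription factor, at 44.7, 54.8 and 56.0 CPM against 15.4 and 19.1 CPM (1.59 ± 0.70, adjusted p = 0.088), Agr2, a disulfide isomerase for mucins, at 474, 354 and 680 CPM against 138 and 220 CPM (1.49 ± 0.80, adjusted p = 0.16), and Foxa3, which rose 3.96-fold (adjusted p = 0.00064). The wild-type libraries set the error of these tests. With either wild-type EphB2-negative library left out, 10 or 9 goblet genes rose and 4 fell, Spdef passed at 2.2e-05 or 2.1e-05, and Tff3 at 0.012 or 0.013.

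Paneth cell genes had a positive median. Of 14 tested 3 rose and 1, the secretory stress factor Xbp1, fell (median 1.51). Both shares are below those of all genes, 26.4% higher and 29.2% lower. The Xbp1 call was lost without EphB2-negative replicate 1 or 2 (adjusted p = 0.057 and 0.14), without EphB2-positive replicate 2 or 3 (0.078 and 0.057) and under pan-epithelial scaling (0.36). Mmp7, the protease that activates defensins, was at 92.1, 94.3 and 161 CPM against 37.8 and 46.5 CPM (1.46 ± 0.36, adjusted p = 0.0072), and lost its call without EphB2-negative replicate 1 (adjusted p = 0.057). Pla2g2a, a secreted phospholipase, was at 6.67, 20.5 and 20.6 CPM against 3 reads in the EphB2-negative libraries, a ratio of 17.5 with a counting interval from 5.81 to 86.5 (adjusted p = 0.0032). Lyz1, Paneth lysozyme, was at 72.7, 158 and 227 CPM against 17.3 and 49.7 CPM and did not pass (2.19 ± 0.80, adjusted p = 0.054), though it did without EphB2-positive replicate 1 (adjusted p = 0.033). Without either wild-type EphB2-negative library 6 members rose.

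Enteroendocrine genes changed in both directions. Of 27 tested, 14 fell and 4 rose (median -1.47), against 29.2% and 26.4% of all genes. The share that rose was thus below that of all genes. The granin Chga, a marker of mature cells, was at 51.4, 40.0 and 53.5 CPM against 648 and 375 CPM (-3.41 ± 0.51, adjusted p = 0.0010), the hormone Ghrl (ghrelin) at 17.4, 25.7 and 21.1 CPM against 354 and 192 CPM (-3.65 ± 0.37, adjusted p = 0.00012), and Tph1, the serotonin-making enzyme, fell 16.8-fold (adjusted p = 0.0012). Neurog3, the factor that starts the lineage, was at 12, 11.9 and 7.20 CPM against 0.640 and 2.55 CPM (2.65 ± 0.58, adjusted p = 0.0038). Gcg, which encodes proglucagon, was a hormone gene higher in the EphB2-positive cells, at 54.7, 66.2 and 59.1 CPM against 8.96 and 2.55 CPM (3.37 ± 0.36, adjusted p = 9.2e-05). The largest log2 fold change in the list, 5.56, belonged to a member not reported here. Cck was at 32.4 to 41.4 CPM against 41.4 and 56.9 CPM and did not pass (-0.45 ± 0.38, adjusted p = 0.34). The 9 tuft cell genes tested fell, but the defining Dclk1, Trpm5 and Pou2f3 had at most 3 reads in any knockout library, and the members that fell include Alox5ap and Fyb, which leukocytes express too.

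Antimicrobial genes were on balance lower in the EphB2-positive cells. Of 22 tested 9 fell and 2 rose (median -1.25), against 29.2% and 26.4% of all genes. In the knockout libraries alone 15 fell and 4 rose. Reg3b and Reg3g, C-type lectins that bind bacteria, took 3.77% to 4.22% of reads in the EphB2-positive and 7.70% and 8.60% in the EphB2-negative libraries. Reg3b was at 26725, 23986 and 25073 CPM against 54496 and 64102 CPM, which does not overlap, but with the error of all 9 libraries it did not pass (-1.23 ± 1.05, adjusted p = 0.35). It passed in the 5 knockout libraries alone (-1.25, adjusted p = 3.3e-08) and without either wild-type EphB2-negative library (adjusted p = 4.9e-06 and 9.1e-07), as did Reg3g. These paralogs are similar in sequence, so reads may be shared between them. Saa3, an acute phase apolipoprotein, was at 0.667, 2.38 and 1.03 CPM against 304 and 1020 CPM (-8.78 ± 0.71, adjusted p = 8.6e-05), and macrophages are known to make it as well. Nos2, the inducible nitric oxide synthase, was at 36.0, 49.997 and 47.8 CPM against 214 and 485 CPM (-2.96 ± 0.44, adjusted p = 0.00092). Lcn2, an iron-chelator trap, fell 4.70-fold (adjusted p = 0.0044). Nox1, the epithelial NADPH oxidase, rose, at 75.4, 100.2 and 86.9 CPM against 10.9 and 8.28 CPM (3.19 ± 0.45, adjusted p = 0.00040).

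Of 29 NF-κB target genes 18 fell and none rose (median -1.29). The 29 include Nfkbia, which had 0 reads in every knockout library and so could not be called. Tnip1, an inhibitor of NF-κB signalling, was at 46.0, 53.8 and 53.5 CPM against 136 and 160 CPM (-1.53 ± 0.17, adjusted p = 0.00010), and Bcl2l1, a survival gene, at 19.4, 22.9 and 24.2 CPM against 74.9 and 76.4 CPM (-1.76 ± 0.18, adjusted p = 8.1e-05). Nfkb2, a subunit of the alternative pathway, fell 2.44-fold (adjusted p = 0.0036). Csf2, a cytokine of lymphocytes and other cells, had 0 reads against 25 and 15.3 CPM, at least 37.2-fold lower (adjusted p = 0.0012). Of 33 interferon response genes 22 fell and none rose (median -1.22), and 14 fell under pan-epithelial scaling. With the leukocyte covariate 2 NF-κB targets fell, and 4 interferon response genes rose while the 22 were no longer called lower. Irf7 was at 15.3, 17.1 and 22.1 CPM against 134 and 173 CPM (-3.06 ± 0.38, adjusted p = 0.00024), Isg15 at 6.01 to 8.09 CPM against 67.5 and 68.5 CPM (-3.31 ± 0.39, adjusted p = 0.00015), and Irf1, which epithelium makes too, at 243, 256 and 180 CPM against 425 and 402 CPM (-0.87 ± 0.17, adjusted p = 0.0018, and 0.057 under pan-epithelial scaling). Of 10 MHC class II genes 3 fell, near the background of 29.2%, and their sum was 275 to 607 CPM against 1174 and 1710 CPM. That count was 1 without either EphB2-negative knockout library, 8 without either wild-type EphB2-negative library, 7 in the knockout libraries alone and 9 with either block term. Leukocyte sums on the EphB2-negative side were 16.6 times those on the EphB2-positive side, and beyond that covariate, which nearly coincides with the sort, their part in these lists was not tested.

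The series carries a fetal phenotype in its title, and a list of fetal gut and repair genes was followed across the sort. Of 21 tested 11 fell and 3 rose (median -1.72), against 29.2% and 26.4% of all genes. Lgals1 was at 0.667, 0.952 and 2.57 CPM against 80.6 and 46.5 CPM (-5.40 ± 0.70, adjusted p = 0.00031), and Il1rn at 0.476 to 1.03 CPM against 25.5 and 26.2 CPM (-5.04 ± 0.56, adjusted p = 0.00016). Leukocytes and stroma express both. Ly6a, the Sca-1 antigen of repairing epithelium and of leukocytes, was at 16.7, 80.5 and 55 CPM against 301 and 160 CPM (-2.16 ± 0.57, adjusted p = 0.018). Its call was lost without EphB2-positive replicate 3, EphB2-negative replicate 1 or either wild-type EphB2-negative library (adjusted p = 0.054 to 0.097), in the 5 knockout libraries alone (0.069), with the replicate block (0.15) and with no filter on low counts (0.066). Without EphB2-negative replicate 2 the list had 7 members lower. The 3 that rose are growth and RNA-binding genes. Hmga2, a chromatin protein of fetal tissue, was at 84.1, 101 and 87.4 CPM against 7.04 and 5.09 CPM (3.89 ± 0.55, adjusted p = 0.00052). Ccnd2, a G1 cyclin, was at 478, 377 and 355 CPM against 69.7 and 64.3 CPM (2.59 ± 0.19, adjusted p = 2.4e-05). Igf2bp1, a binder of growth factor messages, was at 34.7 to 46.7 CPM against 19.8 and 20.4 CPM (0.95 ± 0.25, adjusted p = 0.010), and lost its call without either EphB2-negative library (0.055 and 0.054) and with DESeq2 (0.063).

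Among the called genes of at least 10 CPM with the highest log2 fold changes, several were cell cycle genes or stem cell genes already described. Dctd, which feeds thymidylate synthesis, was at 58.1, 49.5 and 40.6 CPM against 1.28 and 2.55 CPM (4.64 ± 0.61, adjusted p = 0.00031). Esco2, which joins sister chromatids, was at 41.4, 47.1 and 43.7 CPM against 2.56 and 2.55 CPM (4.08 ± 0.45, adjusted p = 0.00011), and Slfn9, a Schlafen family gene, at 115, 97.6 and 98.2 CPM against 3.20 and 8.28 CPM (4.15 ± 0.61, adjusted p = 0.00073). The 10 called genes with the lowest log2 fold changes are all known from leukocytes, among them Gzma, Il22, Mcpt1 and S100a9. By absolute CPM the called genes with the largest gains were Hsp90ab1, Cps1 and Ncl, with the chaperone Hsp90ab1 at 4336, 4298 and 4317 CPM against 1642 and 1293 CPM (1.56 ± 0.22, adjusted p = 0.00036). The called genes with the largest losses were Apoa4, Lypd8, Apoa1 and Muc13, with Lypd8, which keeps flagellated bacteria off the epithelium, at 2896, 2443 and 2533 CPM against 8280 and 9357 CPM (-1.75 ± 0.19, adjusted p = 0.00011), and Muc13, a membrane mucin, at 1834, 1624 and 1882 CPM against 5362 and 7183 CPM (-1.82 ± 0.23, adjusted p = 0.00019). Rn45s, the ribosomal RNA precursor, took 0.166% to 0.179% of reads against 0.420% and 0.510%, opposite in direction to the ribosome biogenesis genes. It is a repeated locus, and its transcript carries no poly(A) tail.

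The sort effect was also tested against that in wild type, in the same fit. The difference between the 2 sort effects passed for 1430 genes (12.4%), 757 above 0 (6.54%) and 673 below 0 (5.81%). Stem, proliferation and ribosome lists had larger positive medians in the knockout, and enterocyte lists larger negative ones. The ribosome biogenesis median was 2.36 in knockout and 0.72 in wild type, with 18 of 31 members passing the test of the difference, against 12 of 32 mitosis genes and 5 of 36 replication genes. Without wild-type EphB2-negative replicate 1 the wild-type medians were 1.21 for ribosome biogenesis, 1.72 for mitosis and 1.84 for replication, still under those of the knockout. Of the lipid list 10 of 26 passed below 0, and of the brush border structure list 8 of 18. Other lists did not follow that pattern. The medians were 0.82 in knockout and -1.38 in wild type for goblet genes and 1.51 and -1.24 for Paneth genes, and the wild-type medians became 0.25 and 0.95 without wild-type EphB2-negative replicate 2. Enteroendocrine (-1.47 and -1.66), fetal gut and repair (-1.72 and -2.03) and MHC class II genes (-2.19 and -4.67) had wild-type medians farther from 0. Without wild-type EphB2-negative replicate 2 the wild-type medians of these lists were -1.34, -0.76 and -0.26. Each was then nearer to 0 than the knockout median. Ephb2 itself had a larger sort effect in the knockout, 2.45 against 0.66 (difference 1.80 ± 0.35, adjusted p = 0.015). In wild type it was at 142 and 160 CPM in EphB2-positive and 125 and 66.8 CPM in EphB2-negative libraries, the 125 in the replicate that stood apart.

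**Figure D4:**
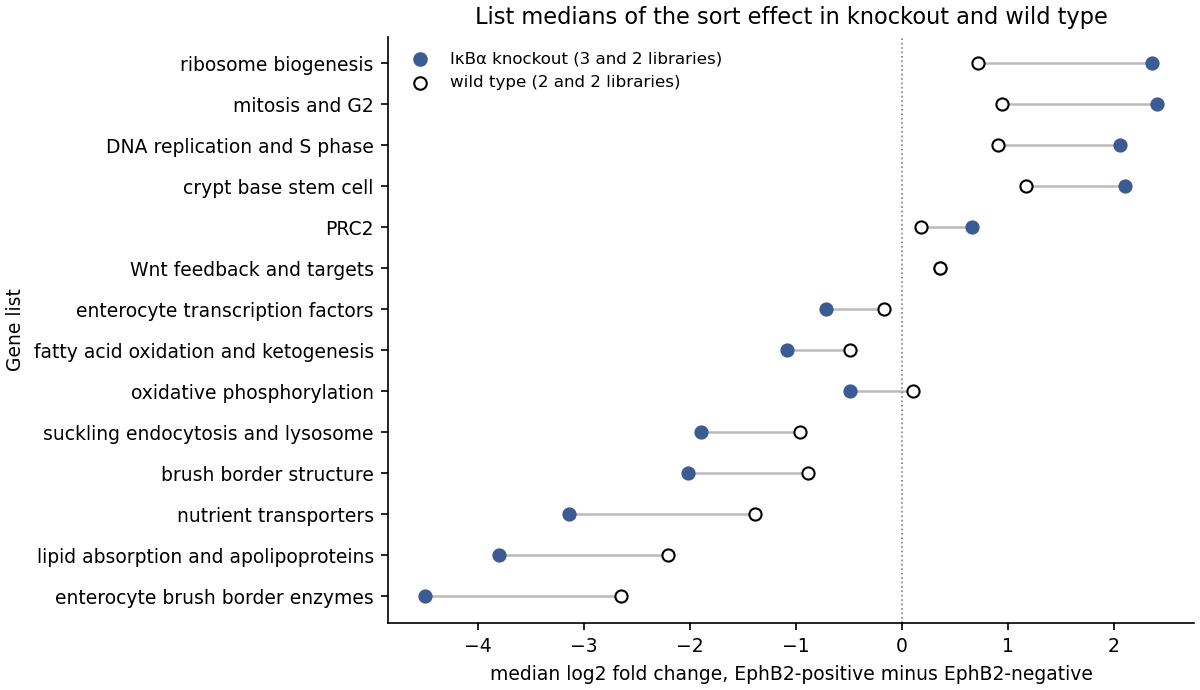
Median log2 fold change (EphB2-positive minus EphB2-negative, x axis) of 14 gene lists (y axis) in knockout (filled) and wild type (open), each point a median over the tested members. Among these 14, the Wnt medians coincide at 0.36, oxidative phosphorylation lies on opposite sides of 0 (-0.49 and 0.11), and the others lie farther from 0 in the knockout.

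Among the genes with the lowest p above 0 were Ipo7, Ccnd2, Mat2a, Usp14 and Wbp5. Mat2a, which makes the methyl donor S-adenosylmethionine, had 2.45 in the knockout and 0.19 in wild type (difference 2.26 ± 0.28, adjusted p = 0.0069). Below 0 were Naprt, Smim24, Dgat1, Slc34a2, Clcn2 and Amn. Naprt, an enzyme of NAD synthesis, had -3.15 in knockout and -0.59 in wild type (difference -2.56 ± 0.20, adjusted p = 0.0025), Slc34a2 -5.72 against -1.16 (-4.56 ± 0.47, adjusted p = 0.0068), and Dgat1 -3.23 against -0.58 (-2.66 ± 0.26, adjusted p = 0.0048). The number of such genes rests on single libraries. With 1 library of a pair left out, that group rests on 1 library and the spread of the pair leaves the error. It was 2339 without wild-type EphB2-negative replicate 1, 3996 without replicate 2, 251 and 32 without wild-type EphB2-positive replicate 1 and 2, 538, 404 and 602 without knockout EphB2-positive replicate 1, 2 and 3, and 500 and 40 without knockout EphB2-negative replicate 1 and 2. Under pan-epithelial scaling it was 2531 above 0 and 137 below.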

How the data were processed

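RNA-seq of sorted cells was analysed from raw gene counts, 1 file per library. Per the submitters' processing notes, which name CASAVA 1.4, FastQC, Bowtie2, HTSeq and DESeq2 and the build mm10, reads were aligned and counted by the authors, and the deposited values are whole-number counts for 24421 gene symbols. The annotation, the strand setting and the handling of shared reads were not given in the sources used here, so antisense and overlapping genes cannot be told apart. The 5 summary lines were left out. Reads in no gene were 9.97% to 14.7% of the reads each file lists, and reads in genes 1503972 to 2074076. The cDNA was amplified and no molecular identifiers are described, so floors and intervals cover counting error only.

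Counts of all 9 libraries (4 groups) were fitted with edgeR 4.0.16 (TMM, filterByExpr by group, robust quasi-likelihood F test, 5 residual degrees of freedom, 11577 genes), two-sided, with Benjamini-Hochberg adjustment over all genes and calls at 0.05. The difference of the sort effects was a contrast of the same fit. CPM are counts scaled by TMM-adjusted library size, and the error after ± is an SE. On simulated counts with the same group sizes, 35 of 100 genes changed 2-fold and 81 of 100 changed 4-fold were recovered. There were 6 false calls, with 11280 genes tested in all. The changed genes had a mean of at least 5 CPM and were a far smaller share than was called in the data. All other group means were set equal, so these rates do not carry over to the comparison reported here. Alternatives were DESeq2 1.42.0, limma 3.58.1 voom weights, other scalings and filters, 2 block terms, a leukocyte covariate, the 5 knockout libraries alone (10896 genes, 3 residual degrees of freedom), a 2-fold test, and each library left out.

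Gene positions are from GENCODE vM21 and promoter windows from RefSeq, both GRCm38. Of the 11577 genes tested 8881 matched a window. The members and the 42 gene lists were chosen with earlier results of these data known. Genes named are Ephb2, Nfkbia and list markers, up to 4 members per list with the lowest p and members against their list's majority, the 10 highest and 10 lowest called genes of at least 10 CPM without overlap, the 10 largest CPM differences each way, and up to 6 genes each way for the difference of the sort effects with any of the others called there. Some were left out where only statistics would follow, and some are not reported here. Epha4, Efna4, Bmi1, Rnf43, Znrf3, Pola1, Mcm7, Mme, Mgam, Mogat2, Fcgrt, Glb1, Cdx2, Lcp1 and Tph1 fall outside that rule and were chosen after their values were seen.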

Additional observations from a re-analysis of the deposited data

Results flagged for a closer look

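Among the 158 printed genes that were tested, 62 had a sort effect (EphB2-positive against EphB2-negative) that differed between knockout and wild type by the test of the difference in edgeR's fit of all 9 libraries (adjusted p under 0.05, against 12.4% of all genes). Many were named because of this test or of a large sort effect in the knockout, so their share says nothing of its own. The difference, knockout minus wild type on the log2 scale, was above 0 for 29 and below 0 for 33.

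Above 0 among receptors and stem cell genes were Ephb2 (1.80), Ephb4 (1.66), Sox9 (3.06), Slc12a2 (2.77), Lrig1 (1.42), Hopx (1.88) and Ccnd1 (2.05). Among genes of replication, mitosis and growth they were Rrm2 (1.39), Pola1 (2.05), Top2a (1.87), Anln (2.095), Dctd (3.81), Esco2 (3.02), Ccnd2 (2.21), Ncl (1.78), Npm1 (1.80) and Nop58 (2.04). The PRC2 subunits Eed (1.55) and Suz12 (0.74) and the chromatin protein Hmga2 (2.73) were also above 0. So were Tmprss2 (1.41), Acsl3 (1.26), Slc16a1 (1.44), Mmp7 (2.78), Ipo7 (2.04), Mat2a (2.26), Usp14 (1.92), Wbp5 (1.95) and Idi1 (1.10).

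Below 0 among brush border and villus genes were Alpi (-2.92), Anpep (-2.82), Ggt1 (-3.63), Mgam (-1.17), Vil1 (-1.15), Myo1a (-1.39), Krt20 (-2.80) and Cdkn1a (-1.52). Lipid and transport genes were Fabp1 (-3.37), Mogat2 (-2.53), Dgat1 (-2.66), Creb3l3 (-3.38), Slc5a1 (-1.997), Slc6a19 (-4.20), Slc34a2 (-4.56), Amn (-2.29) and Clcn2 (-2.53). Metabolic genes were Slc25a20 (-1.60), Hadh (-1.22), Cox4i1 (-0.89), Cyp3a13 (-2.22), Ces2e (-1.82) and Naprt (-2.56). The others were Efna1 (-1.82), Epha1 (-1.17), Tert (-1.52), Notch1 (-0.94), Numb (-0.80), Prdm1 (-1.50), Alox5ap (-4.44), Tnip1 (-1.50), Bcl2l1 (-1.91) and Smim24 (-2.65).

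None of the 62 changed sign under any alternative tried. Of them 59 and 61 were still called without wild-type EphB2-negative replicate 1 and 2, 44 under pan-epithelial scaling, 28 and 12 without wild-type EphB2-positive replicate 1 and 2, 38, 30 and 40 without knockout EphB2-positive replicate 1, 2 and 3, and 34 and 12 without knockout EphB2-negative replicate 1 and 2. All the genes that lost this call under pan-epithelial scaling were below 0. Among them were Alpi, Anpep, Mgam, Vil1, Myo1a, Krt20 and Cdkn1a (adjusted p = 0.0504 to 0.33 for the difference). With 1 library of a pair left out, that group rests on 1 library and its spread leaves the error, so calls kept or gained there do not show stability. With groups of 2 and 3 libraries no single library was tested as an outlier.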

How the results depend on the processing

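The 6428 genes called in the knockout (3053 higher, 3375 lower) ranged from 4437 to 7697 when each of the 9 libraries was left out, 2069 to 3601 higher and 2368 to 4096 lower, fewest without knockout EphB2-negative replicate 2. The 5 knockout libraries alone gave 7290. The calls kept within 1.5 times of 6428 under DESeq2, its size factors, voom weights, no filter, a stricter filter and both blocks. Pan-epithelial scaling left 2221 lower. The 2-fold test called 2467 (980 higher, 1487 lower). The leukocyte covariate left 1006 (354 higher, 652 lower), of which 745 were among the 6428. Of the 142 printed genes called, 132 to 141 were still called with a library left out, 135 under pan-epithelial scaling, 139 with the replicate block, 110 by the 2-fold test and 55 with the covariate. Only the covariate changed the sign of called printed genes (11 of 142). Log2 fold changes of opposite sign with it were -1.10 for Epcam, -1.10 for Axin2, -0.067 for Notch1, -0.47 for Hes1, 1.35 for Dll1, -0.42 for Pcna, -0.012 for Mki67, -0.19 for Slc1a1, 1.33 for Lcp1, 12.57 for Il22, 4.37 for Muc2, 3.11 for Tff3, 0.14 for Xbp1, 6.42 for Reg3b, 4.10 for Reg3g, 5.41 for Lcn2, 0.17 for Nfkb2, 0.38 for Ly6a and 0.64 for Socs3; the cause was not tested. Epcam, which was not called, was at -0.020 to 0.28 with a library left out.

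The 1430 genes whose sort effect differed from wild type ranged from 32 to 3996 with a library left out (6 to 2129 above 0, 26 to 1867 below). They were 2668 under pan-epithelial scaling (2531 above 0, 137 below) and 4 by the 2-fold test (0 above 0, 4 below). That 0 is from edgeR's test, with 559 genes above 0 at an unadjusted p under 0.05, and DESeq2, tested against no change, called 608 above 0. With the file-name code as a block 476 were above 0. The fit of knockout libraries alone gives no value for the difference.

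Replicate numbers did not pair the knockout libraries: deviations of same-numbered libraries had r = 0.0383 and -0.0714. Those sharing a file-name code had r = 0.0714 and 0.1078. In wild type, where number and code give the same pairs, r was 0.1323 for both. Deviations in a group of 2 libraries mirror each other, so these values are not independent. The main fit used no pairing. With the replicate block 5733 genes were called (2620 higher, 3113 lower), 5555 of them also called without it, and 1069 for the difference from wild type. At this depth 3 reads are 1.43 to 2.00 CPM in the knockout, which limits what can be said of genes near that level.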

Other observations

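Energy metabolism genes were lower in the EphB2-positive cells of the knockout, with fatty acid oxidation farther from 0 than the respiratory chain by list median. Of 28 genes of fatty acid oxidation and ketogenesis 24 fell and none rose (median log2 fold change -1.08, against -0.02 over all genes). Slc25a20, the carnitine carrier that brings fatty acids into mitochondria, was at 41.4, 41.9 and 45.8 CPM in EphB2-positive and 241 and 290 CPM in EphB2-negative libraries (-2.62 ± 0.17, SE, adjusted p = 1.9e-05). Hadh, a mitochondrial dehydrogenase of the same pathway, was at 207, 177 and 197 CPM against 529 and 671 CPM (-1.63 ± 0.16, adjusted p = 7.2e-05). Of 33 oxidative phosphorylation subunits 19 fell and none rose (median -0.49), none past the 2-fold test. Sdhb, of complex II, was at 174, 170 and 177 CPM against 289 and 291 CPM (-0.74 ± 0.13, adjusted p = 0.0011), and Cox4i1, of complex IV, at 490, 495 and 503 CPM against 847 and 858 CPM (-0.78 ± 0.17, adjusted p = 0.0033). The count of 19 was 5 under pan-epithelial scaling, 8 and 5 without EphB2-negative replicate 1 and 2, and 11 without EphB2-positive replicate 1 or 2.

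Drug-metabolizing enzymes fell in 18 of 25 cases (median -2.04). Cyp3a13, an oxidase of foreign compounds, was at 16.0, 12.9 and 18.0 CPM against 211 and 361 CPM (-4.19 ± 0.38, adjusted p = 7.2e-05), and Ces2e, a carboxylesterase, at 90.8, 67.6 and 56.0 CPM against 469 and 634 CPM (-2.95 ± 0.25, adjusted p = 4.2e-05). Of 21 cholesterol synthesis genes 2 were higher and none lower, below the background shares, with a median of -0.04 that became 0.23 under pan-epithelial scaling. Idi1, which makes the isoprenoid unit, was at 188, 227 and 241 CPM against 102 and 95.5 CPM (1.15 ± 0.15, adjusted p = 0.00024). Of 20 immediate early genes 5 fell, below the background of 29.2%, among them Socs3, a feedback inhibitor of cytokine signalling, at 166, 143 and 143 CPM against 415 and 431 CPM (-1.49 ± 0.34, adjusted p = 0.0056). That count was 13 in the knockout libraries alone, 11 with the replicate block, 13 with the file-name code as a block, and 1 to 3 when a knockout library was left out. Called genes had median transcript lengths of 3602.5 (higher) and 3092 nucleotides (lower) and GC contents of 47.3% and 52.1%.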
